A study of Homo sapiens with 3 samples.

Results

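The immunoproteasome and peptide loading genes are a set of 10 of the 21357 genes annotated to the array, PSMB8, PSMB9, PSMB10, PSME1, PSME2, TAP1, TAP2, TAPBP, B2M and ERAP1. They were chosen by name, with earlier results of these data known. All probe sets that the HG-U133 Plus 2.0 array annotation gives to these symbols were taken, 21 of the 54675 probe sets on the array. They were read in 3 lines of the human prostate cancer cell line C4-2B, a castration-resistant derivative of LNCaP, with 1 array for each line. C4-2B parental cells were kept without drug. C4-2B MDVR cells were kept in 20 µM enzalutamide (MDV3100), a blocker of the androgen receptor, and C4-2B AbiR cells in 10 µM abiraterone acetate, a prodrug of an inhibitor of androgen synthesis. Per the methods, the parental cells were passaged next to the sublines. The drug was kept in the medium of each subline, and whether a subline is a single clone is not given in the sources used here. Resistance and exposure to the drug therefore cannot be told apart.

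The proteasome cuts proteins into peptides. Its standard catalytic subunits PSMB5, PSMB6 and PSMB7 can be replaced by PSMB8, PSMB9 and PSMB10, which form the immunoproteasome, and PSME1 and PSME2 make up the PA28 cap that opens the particle. TAP1 and TAP2 pump the peptides into the endoplasmic reticulum, ERAP1 trims them there, and tapasin, the product of TAPBP, helps load them onto MHC class I heavy chains held by B2M, beta-2-microglobulin. Most of these genes are known to be induced by interferon-gamma through IRF and STAT factors, and PSMB8, PSMB9, TAP1 and TAP2 lie next to each other inside the MHC on chromosome 6.

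These promoter stretches are shown because they hold an interferon motif that most of the genes share, including genes that were not higher in the sublines. In each stretch the capitals mark the ISRE core GAAANNGAAA, the letters of an interferon-stimulated response element, on either strand, with 25 bases on each side, written from 5′ to 3′ on the strand of the gene (RefSeq sequence, build GRCh38.p14).
PSMB8, chr6:32844017-32844076, minus strand: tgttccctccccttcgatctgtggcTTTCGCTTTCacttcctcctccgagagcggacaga
PSMB10, chr16:67936837-67936896, minus strand: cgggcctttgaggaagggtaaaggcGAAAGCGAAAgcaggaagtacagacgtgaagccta
PSME1, chr14:24136174-24136233, plus strand: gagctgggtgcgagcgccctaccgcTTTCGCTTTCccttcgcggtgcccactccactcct
PSME2, chr14:24146604-24146663, minus strand: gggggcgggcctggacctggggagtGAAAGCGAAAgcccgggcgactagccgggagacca
TAP1, chr6:32853798-32853863, minus strand: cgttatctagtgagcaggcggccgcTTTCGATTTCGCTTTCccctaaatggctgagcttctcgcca
TAP2, chr6:32838763-32838822, minus strand: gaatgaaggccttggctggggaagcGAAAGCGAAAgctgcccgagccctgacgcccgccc
TAPBP, chr6:33314058-33314123, minus strand: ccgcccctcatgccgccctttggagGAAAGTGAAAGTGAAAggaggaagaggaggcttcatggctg
B2M, chr15:44711348-44711413, plus strand: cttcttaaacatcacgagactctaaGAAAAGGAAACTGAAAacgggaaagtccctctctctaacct
ERAP1, chr5:96807909-96807968, minus strand: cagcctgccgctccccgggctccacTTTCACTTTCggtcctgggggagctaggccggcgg

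The ISRE core was found in the promoter windows of 9 of the 10 genes. A window runs from 250 bases before to 50 bases after a RefSeq start site, and the 10 genes had 13 windows, 9 of which held the core. Of all 35116 windows in the table, 3.57% held it, and 4.38% of the 27305 genes had it in at least 1 window. The table of windows is not complete. TAPBP, B2M and TAP1 carried 2 overlapping cores each. PSMB8, TAP1 and ERAP1 each held it in 1 of their 2 windows. In PSMB8 it ran from −4 to 5 around the start site, and PSMB9 had none in its own window. PSMB9 and TAP1 are read in opposite directions from start sites 488 bases apart, and the cores printed for TAP1 lie 354 to 369 bases before the start site of PSMB9. A GAS core, TTCNNNGAA, the letters bound by STAT dimers, was found for 2 of the 10 genes, PSMB8 and TAP1, against 9.38% of all genes. In PSMB8 it shared the window of the ISRE core, and in TAP1 it lay in the other window. The NF-kB consensus was found for 4, TAP1, TAPBP, B2M and ERAP1, against 13.3%, and the GC box GGGCGG for 7 against 48.3%. Both strands were searched for every motif, and a match is a run of letters, not a known binding site.

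**Figure D1:**
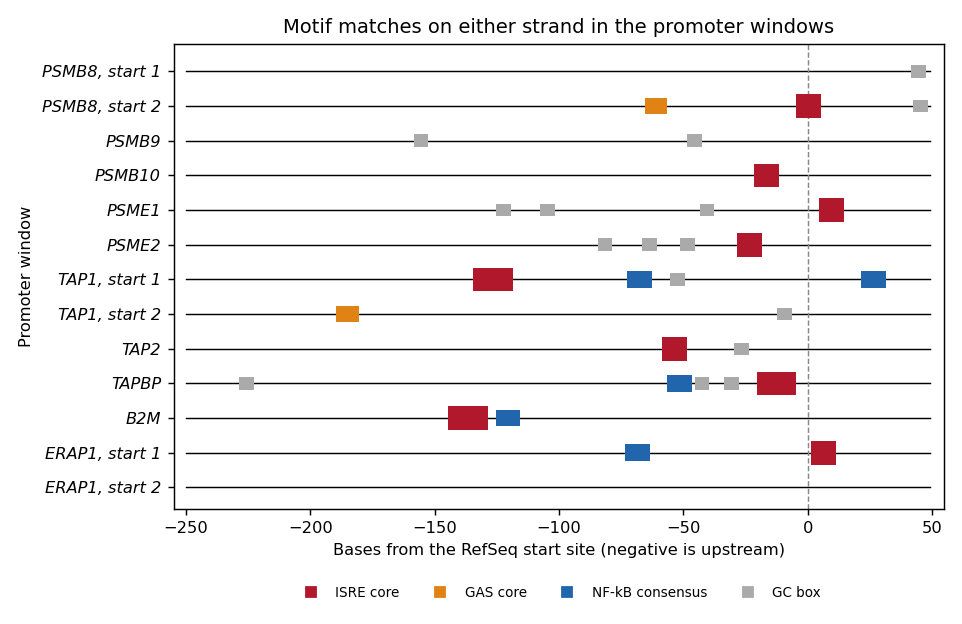
Positions of 4 motifs, on either strand, in the 13 RefSeq promoter windows of the 10 genes (y axis), in bases from the start site (x axis, dashed line at 0), with boxes where the letters matched. An ISRE core (red) is present in 9 windows and in PSMB8 it spans the start site, from −4 to 5, and GC boxes (grey) and NF-kB matches (blue) are unevenly spread.

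The array values are log2 RMA values that had been centred for each probe set, so a value gives a position relative to the other arrays and no expression level. With 1 array for each line there were no replicates, and no difference was tested. Where a gene had several probe sets, ± gives the SD over them, which is a technical spread. For scale, 45 probe sets of spiked bacterial RNA had an SD of 0.13 between MDVR and parental, 0.10 between AbiR and parental and 0.12 between the sublines, in log2 units, and their absolute differences reached 0.35, 0.20 and 0.34. RNA from whole cultures was measured, so fewer cells expressing a gene and less RNA per cell cannot be told apart.

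PSMB8, PSMB9, TAP1 and PSME1 had the largest differences among the 10 genes, and each was higher in both resistant sublines than in parental cells. Each of them, like PSMB10, was read by 1 probe set, while TAP2, TAPBP, B2M and ERAP1 are means of 3 to 5. A mean can be smaller than its parts, and single probe sets reached 0.86 for TAPBP in AbiR and 0.71 for B2M in MDVR. PSME2 was read only together with the small RNA gene MIR7703, so that gene values exist for 9 genes, which are counted below. In MDVR minus parental, 6 of the 9 genes were above 0, as were 57.4% of all genes, and 1 was at least 2-fold higher, against 1.65% of all 19775 genes read alone, and 0 were at least 2-fold lower, against 1.67%. In AbiR minus parental, 7 of 9 were above 0, beside 47.4% of all genes, 2 were at least 2-fold higher, against 1.07% of all genes, and 0 were at least 2-fold lower, against 0.804%. At 1.5-fold, 3 of 9 were higher in MDVR (4.81% of all genes) and 4 of 9 in AbiR (3.32%), and 0 were lower in either (5.15% and 2.52%). The median log2 difference of the 9 genes was 0.46 in MDVR and 0.46 in AbiR, beside 0.044 and −0.011 over all genes. Because the set was chosen with earlier results of these data known, these comparisons with all genes are a description only. Without probe sets whose suffix marks possible matches to further transcripts, PSMB8 and TAP1 have no value, the median of the 7 genes left was 0.17 (MDVR) and 0.18 (AbiR), and no gene of the set, 0 of 7, passed 2-fold upwards in MDVR. Both comparisons share the 1 parental array. On that array PSMB8, PSMB9, PSME1, TAP1, TAPBP and B2M had the lowest of the 3 values by every probe set.

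**Figure D2:**
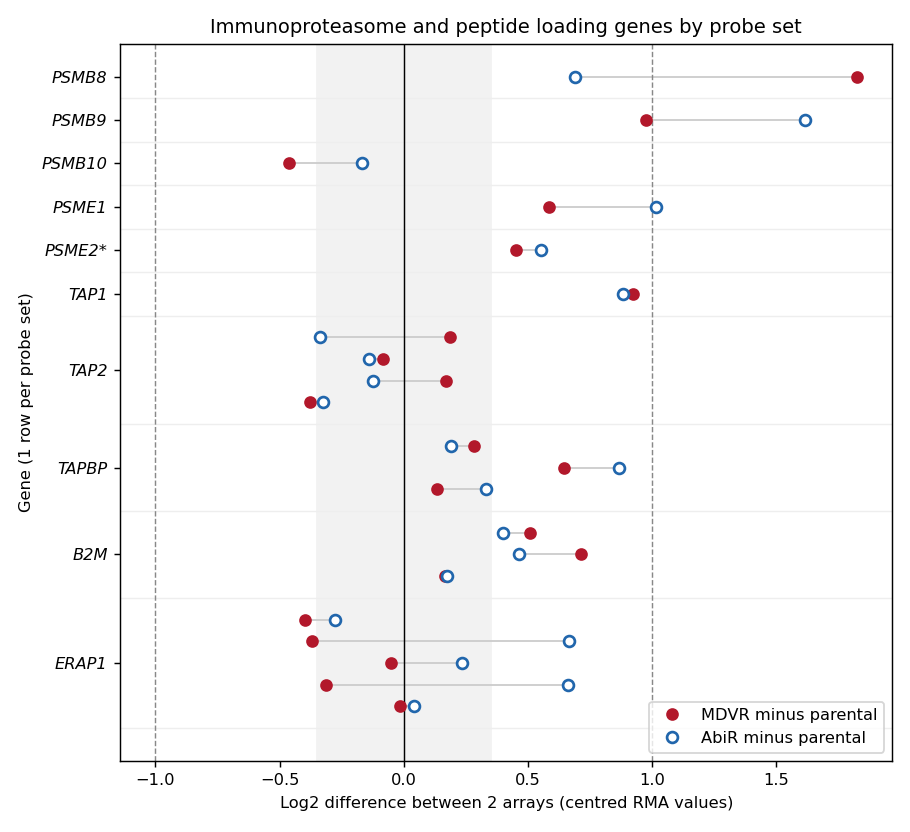
Difference from parental in log2 units (x axis) for the 21 probe sets of the 10 genes (y axis, 1 row for each probe set, * annotated to a further gene), in MDVR (filled) and AbiR (open), with dashed lines at 2-fold and a grey band at the largest absolute difference of a spiked control, 0.35. PSMB8 and PSMB9 lie farthest to the right with the order of the sublines exchanged, while TAP2 and ERAP1 straddle 0.

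Of the 3 catalytic immunosubunits, PSMB8 and PSMB9 were higher in both sublines and PSMB10 was not. PSMB8, the counterpart of PSMB5, had centred log2 values of −1.26 in parental, 0.57 in MDVR and −0.57 in AbiR cells, by its only probe set. It was lowest in parental cells and highest in MDVR cells, 3.55-fold over parental (log2 difference 1.83), with 0.460% of all genes above it, and 1.61-fold over parental in AbiR (0.69). PSMB9, the counterpart of PSMB6, had values of −1.30 in parental, −0.32 in MDVR and 0.32 in AbiR cells. Here AbiR was the highest array, 3.06-fold over parental (1.62), with 0.349% of all genes above it, and MDVR was 1.97-fold over parental (0.98). PSMB10, the counterpart of PSMB7, had values of 0.31, −0.15 and 0.15 in the same order. It was highest in parental cells, 1.38-fold lower in MDVR (−0.46) and 1.12-fold lower in AbiR (−0.17).

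Of the constitutive subunits that these genes replace, PSMB5 and PSMB6 lay nearer to 0 than PSMB8 and PSMB9. PSMB5 had log2 differences of 0.069 in MDVR and −0.28 in AbiR, and PSMB6 of 0.089 and −0.057. PSMB7 had −0.092 ± 0.30 and 0.24 ± 0.58 over 2 probe sets. The difference of PSMB8 exceeded that of PSMB5 by 1.76 in MDVR and 0.97 in AbiR, on the log2 scale. That of PSMB9 exceeded that of PSMB6 by 0.89 and 1.67. For PSMB10 against PSMB7 the sign was the other way, −0.37 and −0.41. These values compare differences between arrays and are not ratios of the levels of the subunits.

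**Figure D3:**
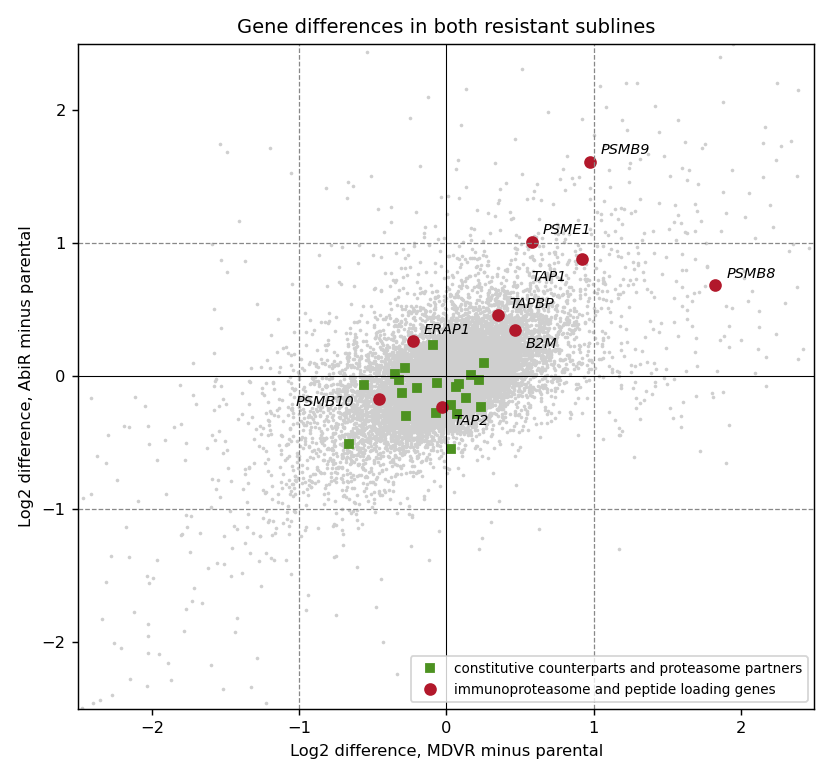
Log2 difference from parental of all genes (grey points) in MDVR (x axis) against AbiR (y axis), with dashed lines at 2-fold and 91 genes outside the range of 2.5 shown to each side. The 9 genes with a value are red, with PSMB8 at 1.83 and 0.69 and PSMB9 at 0.98 and 1.62, and 21 constitutive counterparts and proteasome partners are green squares, all inside the 2-fold lines.

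The PA28 genes were higher in both sublines. PSME1, the alpha subunit, had centred values of −0.80 in parental, −0.22 in MDVR and 0.22 in AbiR cells. The differences from parental were 0.58, just under 1.5-fold, and 1.01 (2.02-fold), so that the AbiR value lay just past 2-fold, and it was 0.92 with arrays centred on hybridization controls. The probe set annotated to PSME2, the beta subunit, and to MIR7703 had values of −0.50, −0.050 and 0.050, a difference of 0.45 in MDVR and 0.55 in AbiR. PSME4, which encodes the alternative cap PA200, was lower instead, at −0.66 ± 0.041 in MDVR and −0.51 ± 0.38 in AbiR over 3 probe sets.

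The transporter genes TAP1 and TAP2, whose products work as a dimer, differed from each other. TAP1 had centred values of −0.90 in parental, 0.020 in MDVR and −0.020 in AbiR cells by 1 probe set. Both sublines were higher than parental and close to each other, at 1.89-fold (0.92) and 1.84-fold (0.88). The means of the 4 TAP2 probe sets were 0.075, 0.048 and −0.16. The TAP2 differences were −0.027 ± 0.27 in MDVR, where 2 probe sets were above and 2 below 0, and −0.23 ± 0.12 in AbiR, where all 4 were below 0. The printed promoter stretch of TAP2 holds an ISRE core, as does that of PSMB10, and neither gene was higher in a subline beyond the spread of its probe sets or of the spiked controls.

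Tapasin and beta-2-microglobulin showed smaller differences that pointed the same way by every probe set. The mean centred values of TAPBP were −0.41 in parental, −0.054 in MDVR and 0.054 in AbiR cells. TAPBP was 1.28-fold higher in MDVR (0.35 ± 0.26, 3 probe sets) and 1.38-fold in AbiR (0.46 ± 0.36). Its 3 probe sets gave 0.28, 0.65 and 0.13 in MDVR and 0.19, 0.86 and 0.33 in AbiR. B2M had mean values of −0.40, 0.058 and −0.058, and was 1.38-fold higher in MDVR (0.46 ± 0.28, 3 probe sets) and 1.27-fold in AbiR (0.35 ± 0.15). 1 of the B2M probe sets read a smaller difference, 0.17 and 0.18, than the pair with suffix _s, which read 0.51 and 0.71 in MDVR and 0.40 and 0.46 in AbiR. An _s suffix marks probes that can match more than 1 transcript, and the only probe sets of PSMB8 and TAP1 carry it too.

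ERAP1, the trimming aminopeptidase, was the member whose sign differed between the sublines. Its mean centred values over 5 probe sets were −0.086 in parental, −0.32 in MDVR and 0.18 in AbiR cells, and the differences from parental were −0.23 ± 0.18 and 0.26 ± 0.41. All 5 probe sets were below 0 in MDVR, from −0.40 to −0.017, while in AbiR 4 were above 0, up to 0.67, and 1 was at −0.28. The direct comparison of the sublines gave −0.49 ± 0.47, again with all 5 below 0. Of these, 2 gave −1.03 and −0.97 and the others −0.28 to −0.059, so that the size of the difference depended on the probe set. The related aminopeptidase gene ERAP2, its neighbour on chromosome 5, was at −0.11 ± 0.062 in MDVR and −0.041 ± 0.22 in AbiR.

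Between the sublines, PSMB8 and PSMB9 went opposite ways. In MDVR minus AbiR, PSMB8 was at 1.14, past 2-fold, and PSMB9 was 1.56-fold lower (−0.64), while TAP1, which lies between them on the chromosome, was at 0.040, less than the SD of the spiked controls. PSME1 was 1.35-fold lower in MDVR (−0.43). Of the 9 genes, 1 was at least 2-fold higher, against 0.875% of all genes, and 0 were at least 2-fold lower, against 1.13%. At 1.5-fold, 1 was higher (2.77% of all genes) and 1 lower (3.96%), and the median was −0.11 beside 0.054 over all genes. The order of the differences from parental was thus PSMB8, PSMB9, TAP1, PSME1, B2M, TAPBP, TAP2, ERAP1 and PSMB10 in MDVR, and PSMB9, PSME1, TAP1, PSMB8, TAPBP, B2M, ERAP1, PSMB10 and TAP2 in AbiR. PSMB9 and TAP1 in MDVR, and B2M and TAPBP in either subline, were closer to each other than the spread of probe sets or spiked controls.

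The other genes of the pathway were read from lists, and each gene was the mean of its probe sets. Genes are called highest or lowest in a list by the mean of their MDVR and AbiR differences from parental, and the order within a single subline can differ. Of 21 constitutive subunits, assembly factors and other proteasome partners, 0 passed 2-fold in either direction in either subline. Of all genes, 1.65% were 2-fold higher and 1.67% lower in MDVR, and 1.07% and 0.804% in AbiR. The list had a median of −0.067 and a range of −0.66 to 0.26 in MDVR, and −0.083 and −0.54 to 0.24 in AbiR. The assembly factor POMP, which matures both kinds of proteasome, was at −0.56 ± 0.39 and −0.064, and PSMB3 and PSMB4 were the highest of the list, at 0.26 and 0.22 in MDVR and 0.10 and −0.029 in AbiR. Of 12 loading partners and other peptidases, 0 were past 2-fold, beside the same shares of all genes, with medians of −0.14 and −0.081. TAPBPL, which encodes the tapasin relative TAPBPR, a peptide editor, was the highest, at 0.74 ± 0.17 and 0.68 over 2 probe sets, and the cytosolic aminopeptidase LAP3 was at 0.35 and 0.28. The chaperones CANX and HSPA5 were the lowest, at −0.75 ± 0.33 and −0.50 ± 0.37 in MDVR and −0.12 and −0.40 in AbiR.

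Class I and class I-like heavy chain genes, read as 1 list, had medians above 0. Beside HLA genes the list holds the class I-like genes CD1D, MR1, HFE, FCGRT, MICA and MICB. Of 11 class I and class I-like heavy chain genes read alone, 10 were above 0 in MDVR (57.4% of all genes) and 9 in AbiR (47.4%), with medians of 0.48 and 0.33. HLA-B was at 0.68 ± 0.065 and 0.71 ± 0.096 over 3 probe sets, and because class I genes are near-identical, its probes may read more than 1 of them. In MDVR, 2 were at least 2-fold higher, beside 1.65% of all genes, the class I-like genes MR1 (1.08 ± 0.69, 6 probe sets) and FCGRT (1.13, 1 probe set), the latter chosen after its value was seen, and their AbiR values were 0.33 and 0.033. By the mean of both differences, CD1D (0.27 and −0.24) and MICA (0.11 and −0.069) were the lowest, while in MDVR alone the lowest was MICB, at −0.18, which was at 0.86 in AbiR and was chosen after its values were seen.

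Interferon signalling genes lay near 0, and interferon-stimulated genes had higher medians. Of 21 signalling genes and regulators, 0 were past 2-fold upwards (1.65% of all genes in MDVR and 1.07% in AbiR) or downwards (1.67% and 0.804%). Their medians were 0.069 and 0.065. IRF1, a factor that binds ISRE-type letters, was the highest, at 0.49 ± 0.081 in MDVR and 0.82 ± 0.29 in AbiR over 2 probe sets, and the receptor gene IFNGR2 was at 0.41 and 0.21. NFKB1 and RFXAP were the lowest by the mean of both differences, at −0.45 and −0.47 ± 0.56 in MDVR and −0.21 and −0.099 in AbiR. NLRC5, which activates MHC class I genes, was at −0.11 and 0.54 by 1 probe set and was chosen after its values were seen. Of 31 interferon-stimulated genes, 3 passed 2-fold upwards in MDVR (1.65% of all genes) and 6 did in AbiR (1.07%). The 6 became 4 with arrays centred on hybridization controls. In either subline 0 were 2-fold lower (1.67% and 0.804% of all genes). The medians were 0.38 and 0.22, beside 0.044 and −0.011 over all genes. IFIT1, an antiviral RNA-binding protein gene, was at 2.15 and 1.76 and UBE2L6, the conjugating enzyme of ISG15, at 3.52 and 0.28. BST2 (−0.97 and −0.37) and IFI44 (−0.36 and −0.14) were the lowest of this list by the mean of both differences.

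**Figure D4:**
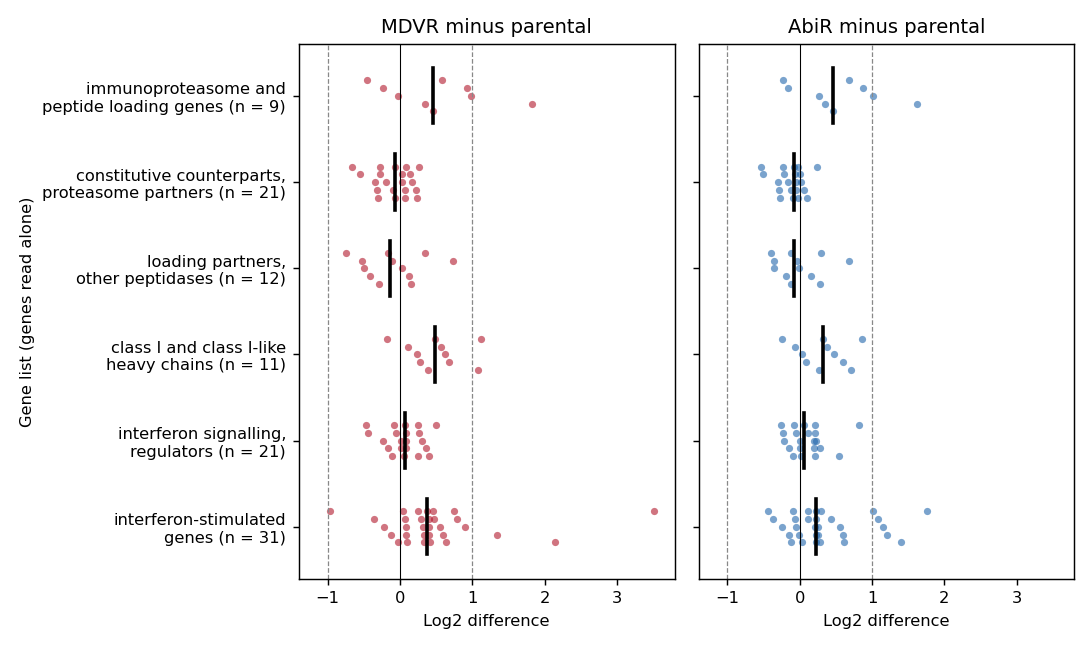
Log2 difference from parental (x axis) of single genes (points) in MDVR (left) and AbiR (right), grouped into 6 lists (y axis, n genes read alone). The black bars are list medians and the dashed lines 2-fold, and the constitutive proteasome list lies around 0 in both panels while the immunoproteasome and peptide loading genes have medians of 0.46 and 0.46.

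In the other lists, the ISRE core was found for 3 of 17 constitutive proteasome genes with a window, 2 of 12 loading partners and peptidases, 1 of 10 heavy chains, 3 of 18 signalling genes and 16 of 23 interferon-stimulated genes. Over all genes, 613 with a core in a window and a value on the array had median differences of 0.067 in MDVR and 0.017 in AbiR. Of these, 2.77% and 2.12% were at least 2-fold higher, against 1.57% and 1.06% of the 14771 genes with windows and no core. At least 2-fold lower were 1.63% and 0.979%, against 1.79% and 0.819%. The genes with no core had medians of 0.040 and −0.012. Whether the core bears on expression here was not tested. The 613 include the 8 genes of the set that have both a core and a gene value.

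Neighbouring genes were read to see whether the differences covered whole stretches of chromosome. Up to 3 measured protein-coding genes on each side of the members gave 37 neighbours, with medians of 0.087 in MDVR and −0.032 in AbiR. In either subline 0 neighbours passed 2-fold upwards, beside 1.65% of all genes in MDVR and 1.07% in AbiR. Downwards 1 passed it, beside 1.67% and 0.804%, and such small counts do not set 37 genes apart from all genes. The gene that passed downwards was the elongation factor gene ELL2 near ERAP1, at −2.68 ± 1.72 and −2.63 ± 1.61 over 4 probe sets. Around TAP2, PSMB8, TAP1 and PSMB9, the class II genes HLA-DQB1 and HLA-DMB had 0.85 ± 0.78 and 0.90 in MDVR, against 0.35 ± 0.40 and 0.23 in AbiR. HLA-DMB lies directly beside PSMB9, and both MDVR values were close to those of TAP1 and PSMB9. HLA-DOB, next to TAP2, was at 0.15 and −0.17, and BRD2, on the other side, at −0.078 and 0.0018. In AbiR, no neighbour on either side of this block reached the 0.69 of PSMB8, the highest being HLA-DQB1. EMC9, which lies between PSME1 and PSME2, was at −0.088 and −0.091. IRF9, 2 measured genes beyond PSME2, was at 0.087 in MDVR and 0.00026 in AbiR. CTRL, next to PSMB10, was at −0.53 and −0.49, beside the −0.46 and −0.17 of PSMB10.

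**Figure D5:**
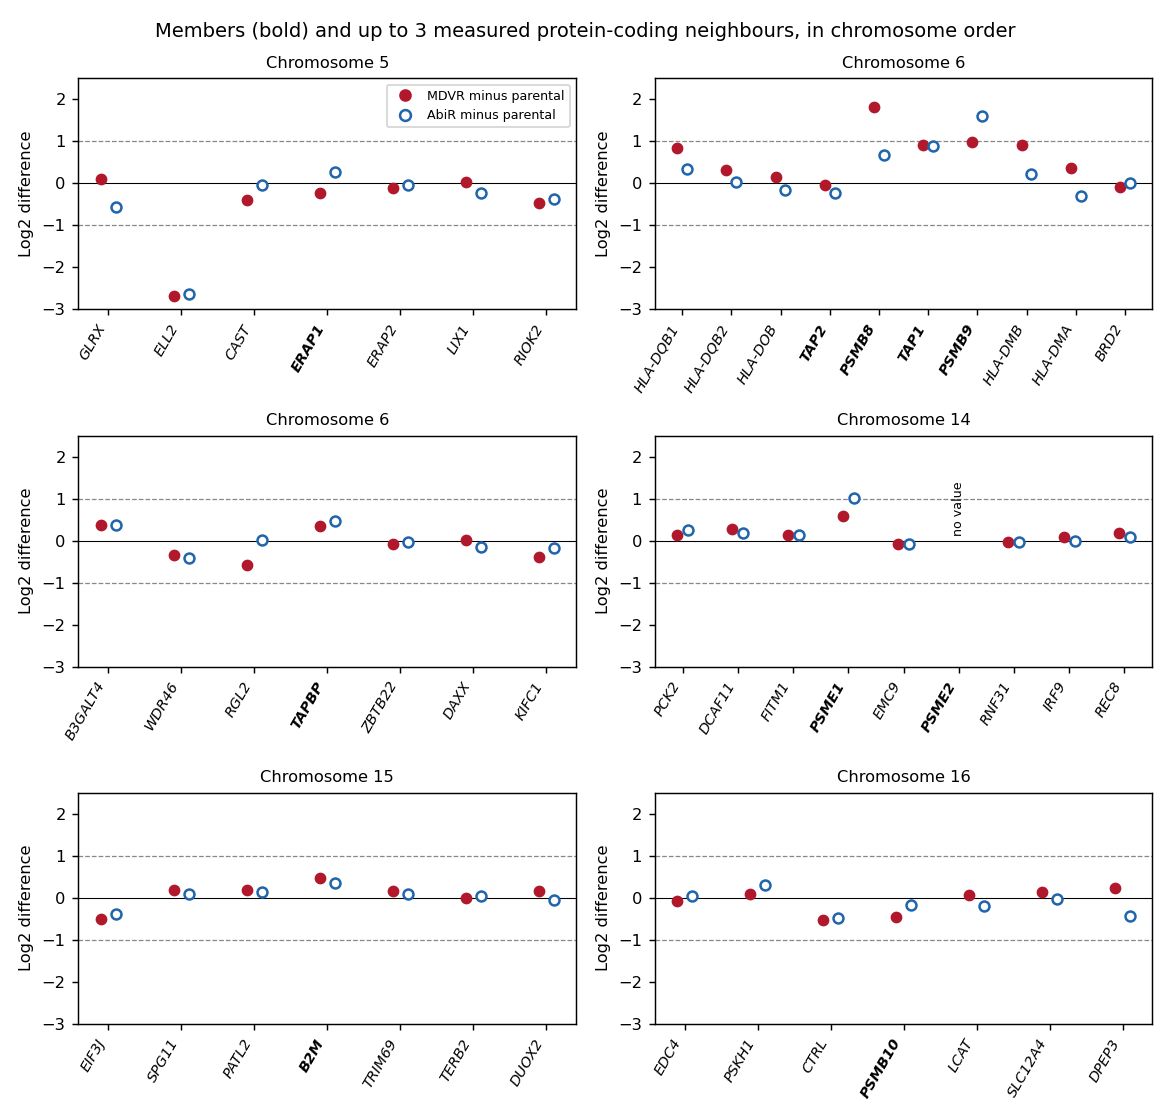
Log2 differences from parental (y axis) in MDVR (filled) and AbiR (open) for the members (bold) and up to 3 measured protein-coding neighbours on each side, in chromosome order and not to scale (x axis), with dashed lines at 2-fold. In MDVR, HLA-DMB (0.90) and HLA-DQB1 (0.85) lie about as high as TAP1 (0.92) and PSMB9 (0.98), while in AbiR they are at 0.23 and 0.35, below TAP1 (0.88) and PSMB9 (1.62).

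PSMB8 was the member farthest from 0 in the plane of the 2 differences from parental, at a Euclidean distance of 1.95 log2 units, followed by PSMB9 at 1.89. The 5 genes nearest to it, among 12241 genes whose probe sets all pointed the same way, were ZNF114, GXYLT2, DHRS3, LYPD6B and RILPL2. ZNF114 was the closest, at 1.76 and 0.68, a distance of 0.070, and the others lay at 0.12 to 0.18. Likeness over 3 arrays rests on 2 differences only, and no other member was among these genes.

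Markers of other cell types were read because immune cells carry much immunoproteasome. Of 10 leukocyte markers read alone, 0 reached 1.5-fold in any comparison. Of all genes, 4.81% were 1.5-fold higher and 5.15% lower in MDVR, and 3.32% and 2.52% in AbiR. In MDVR minus AbiR these shares were 2.77% and 3.96%. The differences of the leukocyte markers ran from −0.017 to 0.20 in MDVR and from −0.31 to 0.13 in AbiR. CD14 and CSF1R were the highest by the mean of both differences, and a summed level cannot be given from centred values. Of 6 fibroblast and 4 endothelial markers, 0 reached 1.5-fold either, with LUM at 0.50 ± 0.34 and COL1A1 at 0.42 ± 0.67 in MDVR as the highest means. Of 10 luminal prostate markers, 2 were at least 2-fold lower in each subline, beside 1.67% of all genes in MDVR and 0.804% in AbiR. These were the androgen-regulated kallikreins KLK3 (−4.07 ± 3.23 and −3.17 ± 2.36) and KLK2 (−1.29 ± 1.19 and −2.12 ± 1.93). At 1.5-fold, 5 were lower in MDVR (5.15% of all genes) and 2 in AbiR (2.52%). The list medians were −0.41 and −0.042. KRT8 (0.32 and 0.30) and HOXB13 (0.37 and 0.17) were the highest by the mean of both differences. Whether the prostate markers are expressed at all cannot be read from centred values. As a sign of RNA quality, the gap between 3′ and 5′ probe sets of ACTB differed from that in parental cells by −0.22 (MDVR) and −0.12 (AbiR), and that of GAPDH by −0.047 and 0.061. The part of these markers and of RNA quality in the results was not tested.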

How the data were processed

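Total RNA of the parental line and both resistant sublines was hybridized to Affymetrix HG-U133 Plus 2.0 arrays, 1 array for each line, and groups were taken from the sample titles. The authors deposited log2 values of 54675 probe sets, for which the submitters' processing notes name RMA, its version not being given in the sources used here. These values had been centred probe set by probe set. To a tolerance of 2e-06, all 100% fitted a centre equal to the median of 4 arrays, which would take in 1 further array, not analysed here. Centring removes the expression level, so that no filter on dim probe sets was possible and the depth of a signal over background is unknown.

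Gene names came from the platform annotation, updated by gene ID (99.9% of the 41091 probe sets with 1 symbol matched) to RefSeq of GRCh38.p14, which also gave the promoter windows and the order of neighbours. A further 1801 probe sets had several symbols and 11721 none here. A gene was the mean of the probe sets annotated to it alone, which gave 19775 genes. Log2 differences were taken between arrays. There was no test and no p-value, and the code was tested on simulated data. Precision is limited by the number of arrays. The genes and lists were chosen with earlier results of these data known. Named were all members, the 2 highest and 2 lowest genes of each list by the mean of both differences from parental, up to 3 neighbours on each side and the 5 genes nearest to the farthest member. ERAP2, and genes said to be chosen after their values were seen, fall outside that rule. Listed genes without a value of their own were not analysed here. The alternatives were medians of probe sets, other choices of probe sets, other centrings and a 1.5-fold threshold. Motifs were searched in RefSeq promoter windows on both strands. Computations used Python 3.11.15, numpy 2.4.6, pandas 2.3.3 and matplotlib 3.10.9.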

Additional observations from a re-analysis of the deposited data

Results flagged for a closer look

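ERAP1 stood out because its mean difference from parental had opposite signs in the sublines, −0.23 in MDVR and 0.26 in AbiR, each larger than the SD of the spiked controls in its comparison. Both were smaller in size than the SD between probe sets of a gene, 0.34 in MDVR and 0.27 in AbiR. That SD is a root mean square over 10523 genes with several probe sets. The difference between the sublines was not tested, since each had 1 array. Probe sets ranged from −0.40 to −0.017 in MDVR and from −0.28 to 0.67 in AbiR.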

How the results depend on the processing

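No paired analysis was possible because each line had 1 array, and no array could be left out. Of 129 differences of single members under the alternatives, 127 kept their sign and 122 moved by no more than the SD of the spiked controls. The 2 that changed sign were TAP2 in MDVR minus parental, at 0.043 with medians of probe sets, and B2M in MDVR minus AbiR, at −0.0080 once probe sets with an _s, _x or _a suffix were left out. With these left out, PSMB8 and TAP1 have no value. The median of the members was then 0.17 in MDVR, 0.18 in AbiR and −0.29 in MDVR minus AbiR, over 7 genes, and 0 were at least 2-fold higher in MDVR minus parental or MDVR minus AbiR. Of the 16788 genes with a value, 247 and 143 were at least 2-fold higher in these comparisons. Under the same setting, the median of loading partners was −0.30 in MDVR with 1 gene 2-fold lower in MDVR minus AbiR, that of heavy chains 0.27 in MDVR and 0.15 in AbiR with 0 genes 2-fold higher in MDVR minus parental or MDVR minus AbiR, and that of constitutive partners −0.0099 in MDVR minus AbiR. With arrays centred on hybridization controls, 1 member instead of 2 was at least 2-fold higher in AbiR, and 1 interferon-stimulated gene was 2-fold lower in MDVR. With medians of probe sets, 1 heavy chain was 2-fold higher in MDVR and 1 interferon-stimulated gene in MDVR minus AbiR. With probe sets of several genes included, 0 heavy chains were 2-fold lower in MDVR minus AbiR. At 1.5-fold, higher counts in MDVR were 3 of 9 members, 4 of 11 heavy chains, 8 of 31 interferon-stimulated genes and 1 of 12 loading partners. The share of all genes was 4.81%. Lower counts were 1 of 21 constitutive partners, 1 of 12 loading partners and 1 of 31 interferon-stimulated genes, beside 5.15% of all genes. In AbiR, the higher counts were 4 of 9 members, 3 of 11 heavy chains, 8 of 31 interferon-stimulated genes, 1 of 12 loading partners and 1 of 21 signalling genes. The share of all genes was 3.32%. In MDVR minus AbiR, 2 of 11 heavy chains were higher, beside 2.77% of all genes. Lower counts were 1 of 9 members, 2 of 12 loading partners, 1 of 21 signalling genes and 4 of 31 interferon-stimulated genes, beside 3.96%. A count of 1 in lists of this size is not far from these shares. The larger shifts of single members were B2M at 0.17 in MDVR and 0.18 in AbiR, TAPBP at 0.60 and ERAP1 at 0.14 in AbiR, all without suffixed probe sets, and, with medians, TAPBP at 0.33 in AbiR and ERAP1 at −0.28 in MDVR minus AbiR. The cause of these shifts was not tested.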
